A study of Mus musculus with 12 samples.

Results

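Fas, Fasl, Fadd, Tradd, Ripk1, Cflar, Casp8 and Casp6 encode the main parts of the death receptor pathway and of the caspase cascade below it. The 8 genes were chosen by name, and all 8 were found among the 48709 genes listed and the 17833 genes tested in the authors' deposited tables. Their RNA was measured in CD8 T cells that bound a tetramer of Spas-1, an antigen of the mouse prostate tumour line TRAMP-C2, and not a tetramer of Spas-2. The cells were sorted as live CD45+CD3+CD8+ cells from lymph nodes draining the tumour. The treated arms received anti-CTLA-4, anti-PD-1 DANA (an antibody whose Fc part is mutated so that Fc receptors do not bind it) or the combination, and the control arm received isotype antibody. Mice of every arm were wild-type C57BL/6, labelled post natal day 91, and carried TRAMP-C2. Antibodies were given on days 3 and 6 and then on day 9 by the sample labels or day 8 by the series text, and nodes were taken on day 28. Cells of 5 mice were pooled in each arm and the pool was divided into 3 libraries. The libraries of an arm are therefore splits of 1 pool, every p-value measures the spread between such splits, and arm and pool cannot be told apart.

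Fas ligand, which activated T cells display, binds Fas, a receptor of the TNF receptor family. The death domain of Fas recruits the adaptor FADD, which brings in caspase-8, and active caspase-8 cleaves executioner caspases. The product of Cflar, c-FLIP, competes with caspase-8 for FADD, while TRADD and RIPK1 serve the TNF receptor, where signalling can lead to survival, apoptosis or necroptosis. In T cells, Fas and its ligand are known for removing cells that have been stimulated repeatedly.

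Casp6, an effector caspase that cleaves nuclear lamins, was higher than isotype in all 3 treated arms and was the only one of the 8 genes that passed the test in more than 1 of them. Tradd, the TNF receptor adaptor, was lower in the combination than in isotype. Fasl and Fadd had high fold changes in the anti-CTLA-4 and anti-PD-1 DANA arms, and not in the combination, but did not pass. Fas, Ripk1, Cflar and Casp8 did not pass in any arm. A gene passed where the false discovery rate in the authors' deposited table was under 0.05, which held for 4.23% of tested genes in anti-CTLA-4, 3.75% in anti-PD-1 DANA and 7.53% in the combination, against isotype each time. Against these shares, 1, 1 and 2 of the 8 genes passed. By direction, Casp6 was the 1 gene of the 8 that was higher in each arm, beside 2.74%, 2.43% and 3.94% of tested genes, and Tradd the 1 that was lower in the combination, where 3.59% of tested genes were lower (1.49% in anti-CTLA-4 and 1.32% in anti-PD-1 DANA, with none of the 8). In these bulk samples, fewer cells that hold a transcript and less of that transcript per cell cannot be told apart.

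The starts of Casp6, Fasl and Fadd are shown because these genes had the highest fold changes. Each sequence runs 5′ to 3′ from 250 bases before the RefSeq transcription start to 50 bases after its first base, on build GRCm38.p6. Capitals mark GC boxes (GGGCGG on either strand) and the NFAT core (GGAAAA on either strand, so TTTTCC where it lies on the other strand). Casp6 is at chr3:129901165-129901464 on the plus strand, Fasl at chr1:161788446-161788745 on the minus strand and Fadd at chr7:144582392-144582691 on the minus strand.
Casp6: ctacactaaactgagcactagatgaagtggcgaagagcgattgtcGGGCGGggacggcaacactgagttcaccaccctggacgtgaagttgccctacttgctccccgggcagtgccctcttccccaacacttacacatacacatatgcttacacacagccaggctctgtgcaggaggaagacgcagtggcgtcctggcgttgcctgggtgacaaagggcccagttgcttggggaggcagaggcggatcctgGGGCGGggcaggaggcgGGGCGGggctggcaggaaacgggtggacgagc
Fasl: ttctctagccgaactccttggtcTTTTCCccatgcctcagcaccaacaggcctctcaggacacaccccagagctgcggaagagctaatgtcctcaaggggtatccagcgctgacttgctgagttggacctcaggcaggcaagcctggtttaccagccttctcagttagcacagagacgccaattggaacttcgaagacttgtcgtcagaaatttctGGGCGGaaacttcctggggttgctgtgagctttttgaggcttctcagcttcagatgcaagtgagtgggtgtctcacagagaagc
Fadd: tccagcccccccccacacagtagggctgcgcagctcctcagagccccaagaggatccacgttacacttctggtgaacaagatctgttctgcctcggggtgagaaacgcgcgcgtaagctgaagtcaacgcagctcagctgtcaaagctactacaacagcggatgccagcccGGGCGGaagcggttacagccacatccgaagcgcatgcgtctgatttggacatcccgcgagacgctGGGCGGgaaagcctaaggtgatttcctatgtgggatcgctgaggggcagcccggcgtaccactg
The Casp6 stretch held 3 GC boxes, the Fadd stretch 2 and the Fasl stretch 1, and 35.7% of the 32851 RefSeq promoter stretches of this length held at least 1. The Fasl stretch held 1 NFAT core, which was found in 23.4% of all stretches. AP-1 letters (TGANTCA, 7.81% of stretches) and GAS letters (TTCNNNGAA, 8.30% of stretches) were in none of the 3 stretches, searched on both strands.

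Levels are given in RPKM, reads normalised to exon length and to library size. The authors' deposited table of each comparison holds only the larger of its 2 group means. Since each low mean can be split into whole reads, the size of all 12 libraries and, for 6 of the 8 genes, the whole reads behind 15 of 32 arm means could be recovered. The libraries of an arm are listed below from the deepest to the shallowest, since they cannot be tied to replicate numbers. Where an arm's mean is not in the tables, it is at most the mean that its table gives, and the mean that the authors' fold change implies after scaling to library size is stated. The log2 error of the implied isotype mean was taken over genes with both means known and the treated mean above isotype. At an isotype mean of 5 RPKM or more its 5th to 95th percentile was -0.16 to 0.09 (824 values). Its median of 0.00 there was fixed in advance, since the scaling was set on the same genes. Under 0.1 RPKM the median error was 0.21 (-0.04 to 0.66, 173 values). The sign of that error means that true isotype means under 0.1 RPKM tended to lie below the implied ones. Implied means of treated arms that lay below isotype were not checked. Fold changes are log2 values ± a standard error derived from the deposited p-value and fold change.

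**Figure D1:**
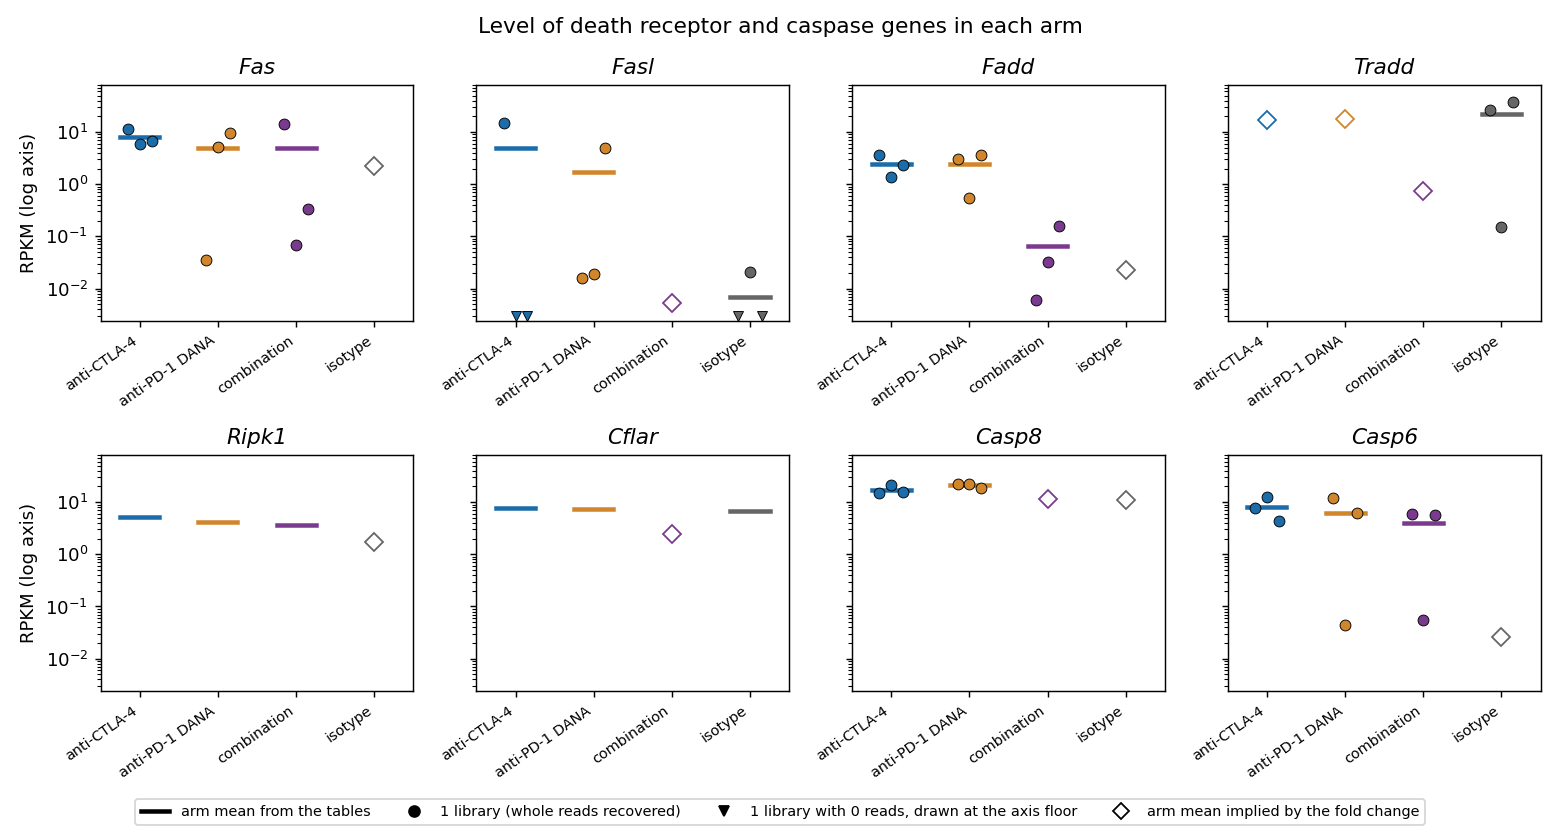
Level of each gene (RPKM, log axis) in the anti-CTLA-4, the anti-PD-1 DANA, the combination and the isotype arm. Bars are arm means from the tables, filled circles single libraries with recovered reads, triangles libraries at 0 reads drawn at the axis floor, and diamonds arm means implied by the fold change. The 3 anti-CTLA-4 libraries of Casp6 lie between 4.33 and 12.3 RPKM, while 1 library of anti-PD-1 DANA and 1 of the combination lie under 0.1 RPKM.

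Fasl encodes Fas ligand and lies on chromosome 1 at 161780689 to 161788495 (GRCm38.p5, minus strand, Ensembl gene ENSMUSG00000000817). In the anti-CTLA-4 arm it had 853, 0 and 0 reads, or 14.9, 0 and 0 RPKM. In the anti-PD-1 DANA arm it had 1, 1 and 235 reads, or 0.0162, 0.0193 and 5.01 RPKM. The combination's mean was at most 0.00702 RPKM, with an implied value of 0.00517 RPKM. That limit is the mean of isotype, where Fasl had 0, 1 and 0 reads. A single library thus carried 100% of the summed level in anti-CTLA-4 and 99.3% in anti-PD-1 DANA, and the other libraries of both arms held 0 or 1 read, as did those of isotype. Without that library the mean was 0 RPKM in anti-CTLA-4 and 0.0177 RPKM in anti-PD-1 DANA. The summed reads per mapped read were 1094-fold those of isotype in anti-CTLA-4 (exact 95% interval 196 to 43278, 853 reads against 1) and 232-fold in anti-PD-1 DANA (41.3 to 9219, 237 reads against 1). These intervals cover counting error only, and amplified reads without molecular identifiers are not independent molecules. In the authors' deposited table the log2 fold change was 8.31 ± 2.58 in anti-CTLA-4 (false discovery rate 0.0661), 6.78 ± 2.59 in anti-PD-1 DANA (0.196) and -0.55 ± 2.90 in the combination (false discovery rate 1). None of the 3 passed on the deposited adjustment. In anti-CTLA-4 Fasl passed when adjusted over tested genes only (false discovery rate 0.0242) and by library size. Among genes with a larger group mean of 1 RPKM or more it passed in anti-CTLA-4 and in anti-PD-1 DANA (0.0443). Fasl entered that filter only through its high arm, so passing there is no separate support.

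Fas, the receptor, lies on chromosome 19 at 34290659 to 34327770 (plus strand, ENSMUSG00000024778). In the anti-CTLA-4 arm it had 611, 200 and 182 reads, or 11.5, 5.82 and 6.86 RPKM. In anti-PD-1 DANA it had 2, 244 and 424 reads, or 0.0348, 5.06 and 9.71 RPKM. In the combination it had 1082, 4 and 15 reads, or 14.1, 0.0694 and 0.339 RPKM. The anti-CTLA-4 libraries thus lay close together, anti-PD-1 DANA had 1 library nearly without Fas, and in the combination 1 library held 97.2% of the summed level. The arm means were 8.05 ± 3.01 RPKM in anti-CTLA-4, 4.94 ± 4.84 RPKM in anti-PD-1 DANA and 4.84 ± 8.03 RPKM in the combination (SD, n = 3 each), and isotype had an implied mean of 2.21 RPKM. Without its highest library the combination's mean was 0.204 RPKM, below the implied isotype mean. The isotype libraries of Fas were not recovered and the same cut could not be made there, so this does not rank these arms. The log2 fold change in the authors' deposited table was 0.93 ± 1.83 in anti-CTLA-4, 0.32 ± 1.83 in anti-PD-1 DANA and 1.02 ± 1.83 in the combination (false discovery rate 1 in each). The mean in RPKM was highest in anti-CTLA-4, followed by anti-PD-1 DANA, the combination and isotype. Neighbours among the treated arms did not differ beyond their spread. In the authors' scaling the fold change was highest in the combination, so the order of the treated arms depended on the scaling. The spread of isotype is not known.

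Fadd encodes the adaptor that links Fas to caspase-8 and lies on chromosome 7 at 144577318 to 144582463 (minus strand, ENSMUSG00000031077). In anti-CTLA-4 it had 412, 104 and 134 reads, or 3.57, 1.40 and 2.33 RPKM. In anti-PD-1 DANA it had 382, 56 and 339 reads, or 3.06, 0.536 and 3.58 RPKM. In the combination it had 1, 4 and 15 reads, or 0.00602, 0.0320 and 0.156 RPKM. All 6 libraries of anti-CTLA-4 and anti-PD-1 DANA lay above all 3 of the combination, although the test of the difference did not pass (false discovery rate 0.621 in the combination against anti-CTLA-4 and 0.678 against anti-PD-1 DANA, where 0.903% and 0.449% of tested genes passed). The isotype mean was at most the 0.0648 RPKM of the combination, and its implied value was 0.0227 RPKM, where 1 read in each isotype library would amount to 0.00965 RPKM. The arm means were 2.43 ± 1.09 RPKM in anti-CTLA-4, 2.39 ± 1.63 RPKM in anti-PD-1 DANA and 0.0648 ± 0.0803 RPKM in the combination (SD, n = 3 each). The log2 fold change in the authors' deposited table was 5.81 ± 1.82 in anti-CTLA-4 (false discovery rate 0.0699), 5.91 ± 1.82 in anti-PD-1 DANA (0.0675) and 1.32 ± 1.85 in the combination (false discovery rate 1). Fadd therefore did not pass in any arm on the deposited adjustment. Adjusted over tested genes only it passed in anti-CTLA-4 (false discovery rate 0.0256) and anti-PD-1 DANA (0.0247), and it also passed in both by library size. It passed in both among genes with a larger group mean of 1 RPKM or more as well. Fadd entered that filter only through its high arms, so passing there is no separate support. Unlike that of Fasl its level in the anti-CTLA-4 and anti-PD-1 DANA arms did not rest on 1 library. Its exons overlap the antisense gene Faddos, and whether the counting used strand is not given in the sources used here, so reads of the pair cannot be told apart.

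Tradd encodes the adaptor of the TNF receptor and lies on chromosome 8 at 105258286 to 105264609 (minus strand, ENSMUSG00000031887). Its implied mean was 16.7 RPKM in anti-CTLA-4, 17.9 RPKM in anti-PD-1 DANA and 0.744 RPKM in the combination, all under the 21.7 ± 19.6 RPKM of isotype (SD, n = 3). The isotype libraries had 1638, 7 and 1713 reads, or 26.7, 0.153 and 38.3 RPKM, so 1 of the 3 was nearly without Tradd. In the combination Tradd was lower than isotype, with a log2 fold change of -4.97 ± 1.42 (p = 4.73e-04, false discovery rate 0.0243) in the authors' deposited table. In anti-CTLA-4 the log2 fold change was -1.33 ± 1.42 and in anti-PD-1 DANA -1.09 ± 1.42 in the authors' deposited table (false discovery rate 1 in both). The isotype library with 7 reads lay below the implied mean of the combination, so the arms are not shown to be apart library by library, and the combination's own libraries could not be recovered. Without that library the isotype mean was 32.5 RPKM, and without the highest it was 13.4 RPKM. Up to 0.0800 solutions of this kind were expected by chance for Tradd, more than for any of the other 5 genes with recovered reads.

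Ripk1 encodes a kinase of the TNF receptor complex that is needed for necroptosis, and lies on chromosome 13 at 34002363 to 34035170 (plus strand, ENSMUSG00000021408). Its mean in the authors' deposited table was 5.27 RPKM in anti-CTLA-4, 4.19 RPKM in anti-PD-1 DANA and 3.69 RPKM in the combination, and the implied isotype mean was 1.74 RPKM. The 3.69 RPKM was assigned to the combination by the sign of its fold change. The log2 fold change in the authors' deposited table was 0.62 ± 1.62 in anti-CTLA-4, 0.45 ± 1.62 in anti-PD-1 DANA and 1.01 ± 1.62 in the combination. These values lay within 1 standard error of 0, and the false discovery rate was 1 in each of the authors' deposited tables. Reads per library could not be recovered for Ripk1, whose exons overlap Serpinb6a on the opposite strand and the pseudogene Gm17084.

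Cflar encodes c-FLIP, the inhibitor that occupies FADD in place of caspase-8, and lies on chromosome 1 at 58711508 to 58758884 (plus strand, ENSMUSG00000026031), next to Casp8. Its mean in the authors' deposited table was 7.89 RPKM in anti-CTLA-4, 7.25 RPKM in anti-PD-1 DANA and 6.86 RPKM in isotype, the last assigned by the sign of the fold change, and the implied mean of the combination was 2.42 RPKM. The log2 fold change in the authors' deposited table was -0.76 ± 1.11 in anti-CTLA-4, -0.75 ± 1.11 in anti-PD-1 DANA and -1.61 ± 1.11 in the combination (p = 0.496, 0.502 and 0.148). These were the smallest standard errors among the 8 genes. Scaled to library size, the log2 fold change was 0.19 in anti-CTLA-4, 0.07 in anti-PD-1 DANA and -1.50 in the combination, so that the sign in the anti-CTLA-4 and anti-PD-1 DANA arms depended on the scaling.

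Casp8 encodes caspase-8, the initiator that FADD recruits, and lies on chromosome 1 at 58795374 to 58847503 (plus strand, ENSMUSG00000026029). In anti-CTLA-4 it had 1313, 1167 and 662 reads, or 15.3, 21.1 and 15.5 RPKM. In anti-PD-1 DANA it had 2035, 1708 and 1329 reads, or 22.0, 22.1 and 19.0 RPKM. Of the 5 genes with recovered reads in these arms, Casp8 was the most evenly spread, with arm means of 17.3 ± 3.29 RPKM in anti-CTLA-4 and 21.0 ± 1.78 RPKM in anti-PD-1 DANA (SD, n = 3 each). The larger of the combination and isotype means was 12 RPKM, and the implied means were 11.5 RPKM in the combination and 11.1 RPKM in isotype. The log2 fold change in the authors' deposited table was -0.31 ± 1.16 in anti-CTLA-4, 0.10 ± 1.16 in anti-PD-1 DANA and -0.06 ± 1.16 in the combination (false discovery rate 1 in each). The authors' scaling set all fold changes lower than library size would, by 0.94 in anti-CTLA-4, 0.82 in anti-PD-1 DANA and 0.11 in the combination, so the Casp8 mean in RPKM was above that of isotype in anti-CTLA-4 while its fold change was below 0. Scaled to library size, Casp8 had log2 fold changes of 0.63, 0.92 and 0.05 in these arms.

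Casp6 encodes an effector caspase and lies on chromosome 3 at 129901425 to 129914103 (plus strand, ENSMUSG00000027997). In anti-CTLA-4 it had 385, 393 and 107 reads, or 7.76, 12.3 and 4.33 RPKM. In anti-PD-1 DANA it had 647, 2 and 250 reads, or 12.1, 0.0446 and 6.16 RPKM. In the combination it had 428, 3 and 237 reads, or 6.00, 0.0559 and 5.75 RPKM. Casp6 was thus present in all 3 libraries of anti-CTLA-4 and in 2 of 3 libraries of each other treated arm, with the remaining library at 2 or 3 reads. The implied isotype mean was 0.0261 RPKM (0.0257 to 0.0264 over the 3 tables), where 1 read in each isotype library would amount to 0.0225 RPKM. The arm means were 8.13 ± 3.99 RPKM in anti-CTLA-4, 6.09 ± 6.02 RPKM in anti-PD-1 DANA and 3.94 ± 3.36 RPKM in the combination (SD, n = 3 each), and these 3 neighbours did not differ beyond their spread. In the authors' deposited table Casp6 was higher than isotype by a log2 fold change of 7.34 ± 1.94 in anti-CTLA-4 (p = 1.52e-04, false discovery rate 0.0202), 7.07 ± 1.94 in anti-PD-1 DANA (p = 2.62e-04, 0.0275) and 7.11 ± 1.94 in the combination (p = 2.44e-04, 0.0158). The 3 comparisons share the isotype libraries, so they are not independent. With isotype near 1 read per library, the size of these fold changes depends on the authors' fit and is no bound. Without its highest library the mean was 6.05 RPKM in anti-CTLA-4, 3.10 RPKM in anti-PD-1 DANA and 2.90 RPKM in the combination, above the implied isotype mean each time.

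**Figure D2:**
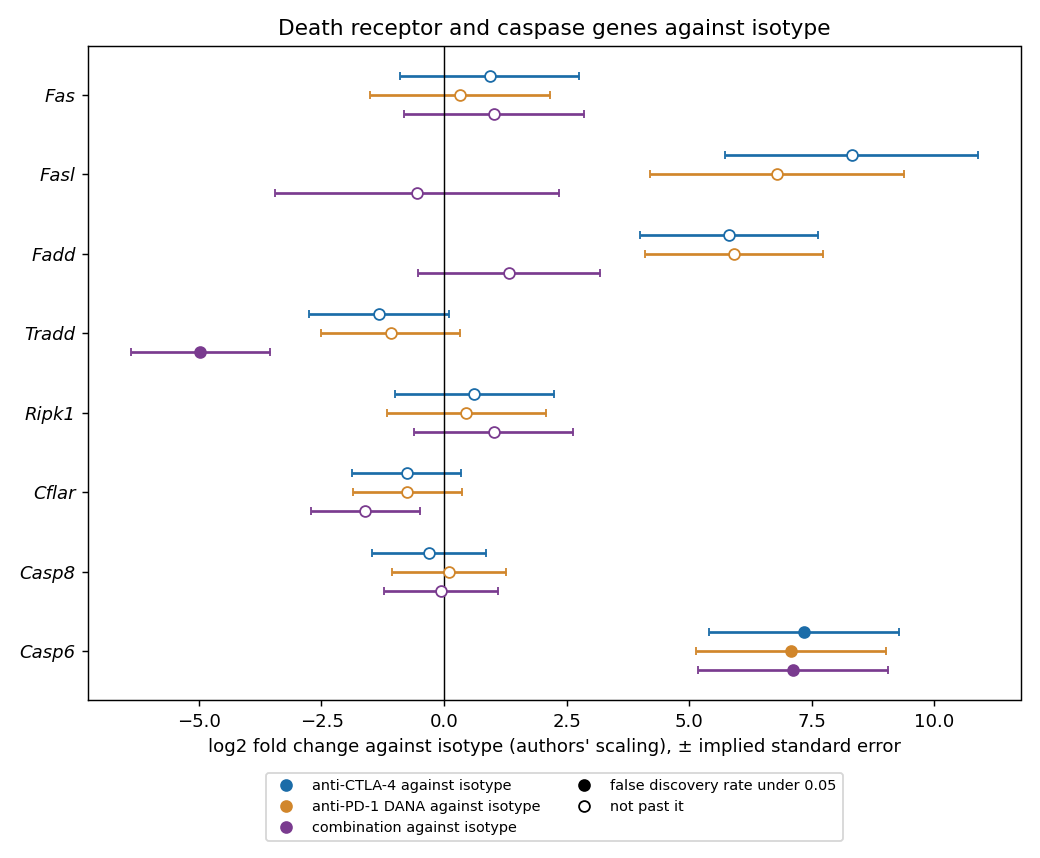
Log2 fold change against isotype of each gene (horizontal axis, authors' scaling) in the anti-CTLA-4 arm, the anti-PD-1 DANA arm and the combination arm, with bars of 1 implied standard error. Filled points have a false discovery rate under 0.05. Casp6 is filled in all 3 comparisons and Tradd only in the combination, at -4.97.

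Read as a group, 5 of the 8 genes had a log2 fold change above 0 in anti-CTLA-4, 6 in anti-PD-1 DANA and 4 in the combination, where 40.6%, 43.5% and 43.0% of all tested genes did. The median log2 fold change of the 8 was 0.77 in anti-CTLA-4, 0.39 in anti-PD-1 DANA and 0.48 in the combination, beside -0.62, -0.45 and -0.42 over all tested genes. At an unadjusted p under 0.05, Fasl, Fadd and Casp6 were below that value in anti-CTLA-4 and in anti-PD-1 DANA, and Tradd and Casp6 in the combination, as were 22.9%, 23.1% and 23.2% of tested genes. The standard errors of the 8 ranged from 1.11 to 2.90 on the log2 scale over the 3 comparisons, and the median over tested genes was 1.95, 1.93 and 1.94. None of the 8 passed Bonferroni adjustment (an adjusted value of 1 in each of the authors' deposited tables).

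**Figure D3:**
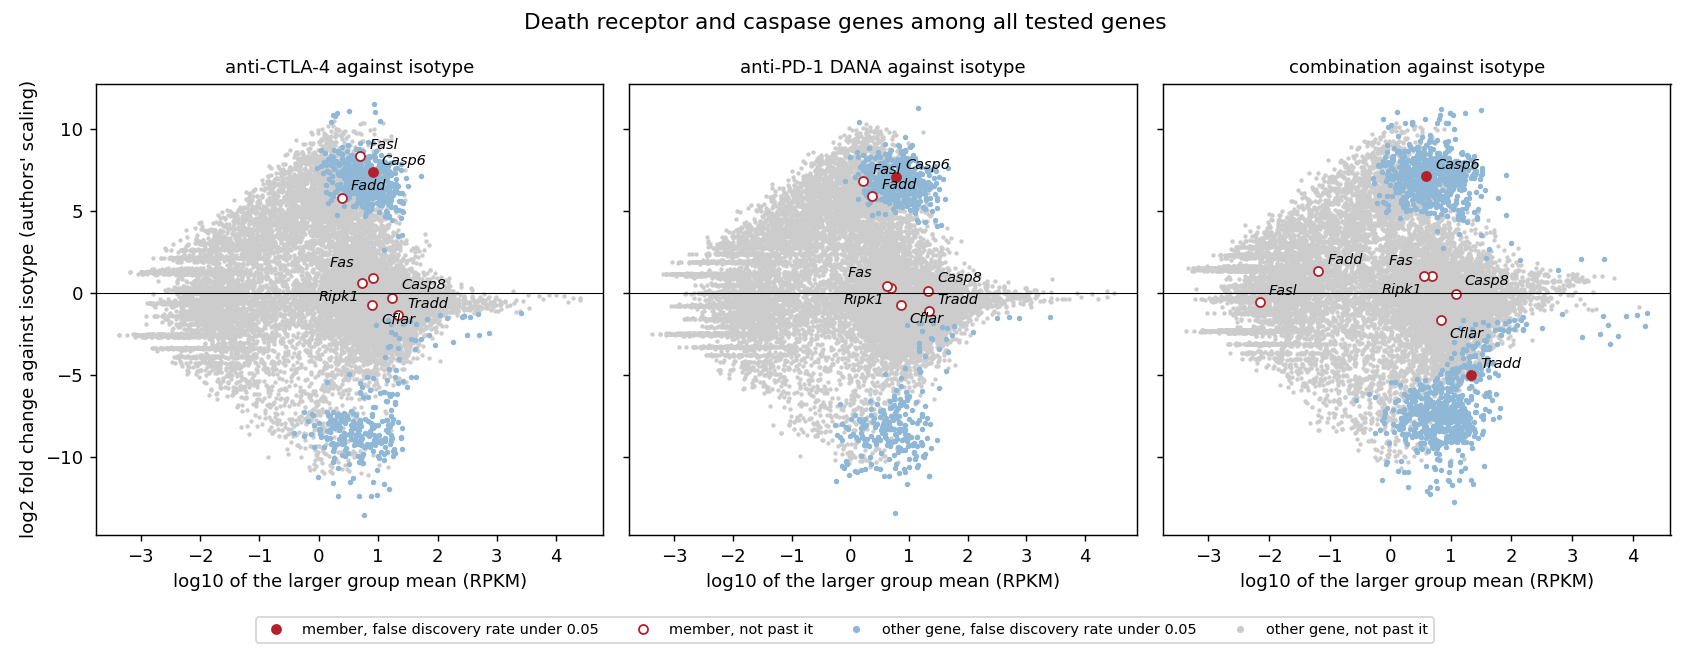
Log2 fold change (vertical axis, authors' scaling) against the log10 of the larger group mean in RPKM for every tested gene, with a panel each for the anti-CTLA-4, the anti-PD-1 DANA and the combination arm against isotype. Grey and blue points are other genes without and with a false discovery rate under 0.05, and red circles are the 8 genes, filled where they passed. Casp6 lies among the blue points above 0 in each panel, at the 96.7, 95.9 and 96.4 percentile of fold change, and Tradd at the 6.22 percentile in the combination.

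The library that lacked a gene was not the same for every gene. In anti-PD-1 DANA the deepest library had 2 reads of Fas and 647 of Casp6, while the middle library had 244 of Fas and 2 of Casp6. In the combination the deepest library had 1082 reads of Fas, 428 of Casp6 and 1 of Fadd, the middle had 4 of Fas, 3 of Casp6 and 4 of Fadd, and the shallowest had 15 of Fas, 237 of Casp6 and 15 of Fadd. The middle library of the combination was therefore low for all 3 of these genes. Over the 15 recovered means of the 8 genes, 9 had a library under 10% of the highest and 5 had 80% or more of the level in 1 library. Among the 13 of these means that lay between 1 and 25 RPKM, these counts were 7 and 3. Among 1446 recovered means of 1 to 25 RPKM from 2000 drawn genes, 70.2% had a library under 10% of the highest and 43.9% had 80% or more in 1 library. By arm, means with 80% or more in 1 library made up 31.5% in anti-CTLA-4, 32.6% in anti-PD-1 DANA, 57.2% in the combination and 77.0% in isotype. Only the larger mean of a comparison is known, so each arm's share covers a different set of genes, selected for a high mean in that arm. These shares therefore do not rank the arms by how uneven their libraries were.

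The treatments were next compared with each other, by the difference of their fold changes, in which isotype cancels. These were 24 comparisons, 3 for each of the 8 genes, and none passed at a false discovery rate under 0.05, by Benjamini-Hochberg adjustment over all listed genes. Over all tested genes 161 (0.903%) passed between the combination and anti-CTLA-4 and 80 (0.449%) between the combination and anti-PD-1 DANA. From the implied errors 0 genes (0%) passed between anti-CTLA-4 and anti-PD-1 DANA, where 1152 genes (6.46%) had an unadjusted p under 0.05. Tradd was at a log2 difference of -3.65 ± 1.42 in the combination against anti-CTLA-4 (95% interval -6.43 to -0.86, false discovery rate 0.511) and of -3.88 ± 1.42 against anti-PD-1 DANA (-6.67 to -1.10, false discovery rate 0.485). Fadd was at -4.49 ± 1.84 in the combination against anti-CTLA-4 (-8.09 to -0.89, false discovery rate 0.621) and at -4.59 ± 1.84 against anti-PD-1 DANA (-8.18 to -0.99, false discovery rate 0.678). Fasl was at -8.86 ± 3.89 in the combination against anti-CTLA-4 (-16.48 to -1.24, false discovery rate 0.760) and at -7.33 ± 3.89 against anti-PD-1 DANA (-14.95 to 0.29, false discovery rate 1). The intervals of Tradd and Fadd in both of these comparisons, and of Fasl against anti-CTLA-4, lay below 0 before adjustment, so the 3 genes with the lowest values in the combination did not reach the threshold there. An unadjusted p under 0.05 was found for 12.5% of tested genes in the first comparison and 11.0% in the second.

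Casp6 differed little in point estimate between treatments, at a log2 difference of -0.23 ± 1.94 in the combination against anti-CTLA-4 (95% interval -4.03 to 3.57), 0.04 ± 1.94 against anti-PD-1 DANA (-3.76 to 3.84) and 0.27 ± 1.94 in anti-CTLA-4 against anti-PD-1 DANA (-3.53 to 4.06). These wide limits do not show that the arms were alike in Casp6. For Cflar, the gene with the narrowest intervals, the difference was -0.85 ± 1.11 in the combination against anti-CTLA-4 (-3.04 to 1.33), -0.86 ± 1.11 against anti-PD-1 DANA (-3.05 to 1.32) and -0.01 ± 1.11 in anti-CTLA-4 against anti-PD-1 DANA (-2.19 to 2.17). For Casp8 it was 0.25 ± 1.16, -0.16 ± 1.16 and -0.42 ± 1.16 in the same order, with limits between -2.69 and 2.53. Fas and Ripk1 lay between 0.10 and 0.70, with standard errors of 1.83 and 1.62.

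**Figure D4:**
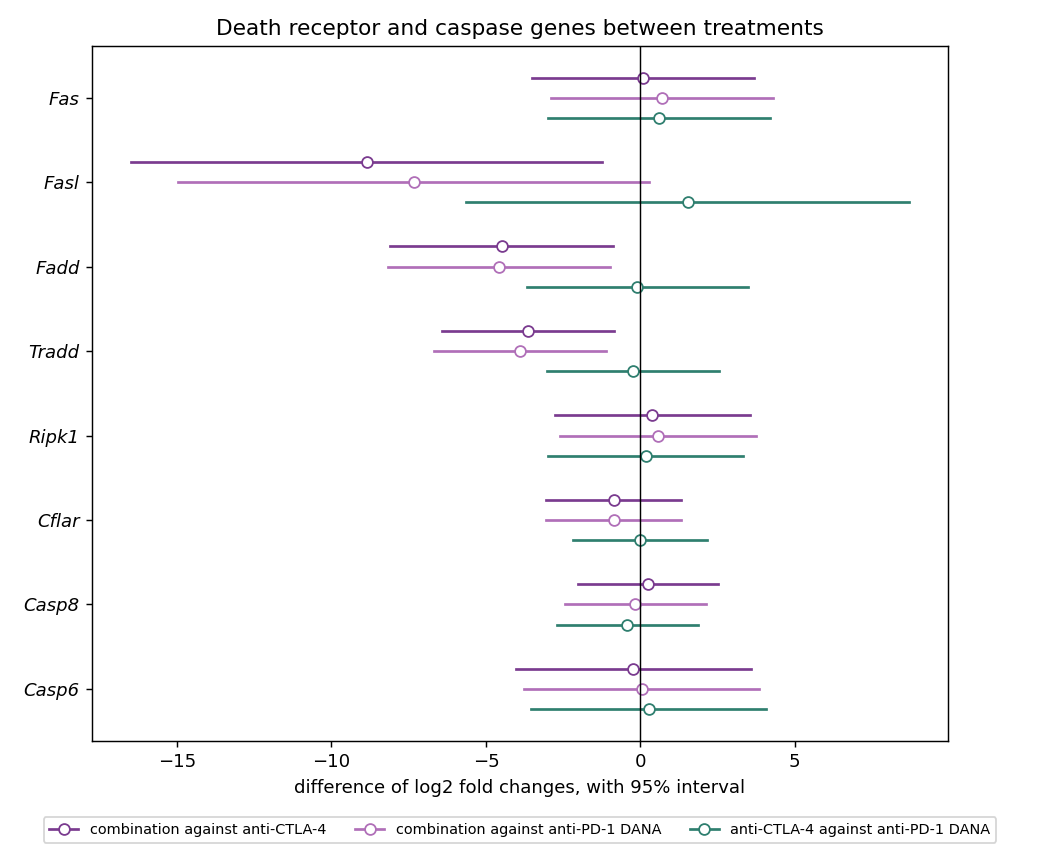
Difference of log2 fold changes between treatments (horizontal axis) for each gene, with 95% intervals, for the combination against anti-CTLA-4, the combination against anti-PD-1 DANA, and anti-CTLA-4 against anti-PD-1 DANA. Open points mark that no difference passed adjustment. The intervals of Fadd and Tradd lie below 0 in both comparisons of the combination.

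Other genes of the pathway were read in 4 lists with 69 genes, of which 62 were tested. In anti-CTLA-4, 1 of the 62 was higher and 0 were lower, in anti-PD-1 DANA 2 were higher and 0 lower, and in the combination 2 were higher and 2 lower. Over all tested genes 2.74%, 2.43% and 3.94% were higher and 1.49%, 1.32% and 3.59% lower in the same arms. The median log2 fold change of the lists was -0.59 in anti-CTLA-4, -0.39 in anti-PD-1 DANA and -0.33 in the combination, close to the -0.62, -0.45 and -0.42 of all tested genes. Of 11 tested members among other death receptors and their ligands, none passed at a false discovery rate under 0.05 in the authors' deposited tables. An unadjusted p under 0.05, met by 22.9%, 23.1% and 23.2% of all tested genes, was found for 0, 3 and 0 of the 11. The most abundant of them were Tnfrsf25, the death receptor 3 gene, at 22.3 RPKM in isotype with log2 fold changes of -2.35 ± 1.82 in anti-CTLA-4, -3.13 ± 1.82 in anti-PD-1 DANA and -3.29 ± 1.82 in the combination, and Tnf at 20.2 RPKM in isotype with -0.99 ± 1.60, -1.41 ± 1.60 and -0.65 ± 1.60, by the authors' deposited table.

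Among 23 tested regulators of the receptor complexes, ubiquitin chains and necroptosis, 1 passed in each arm, beside 4.23%, 3.75% and 7.53% of tested genes. The regulator that passed was Ikbkg, which encodes NEMO, the regulatory subunit of the IkB kinase that RIPK1 ubiquitin chains recruit. Its log2 fold change in the authors' deposited table was 6.91 ± 1.55 in anti-CTLA-4 (false discovery rate 0.00424), 7.28 ± 1.55 in anti-PD-1 DANA (0.00268) and 5.48 ± 1.55 in the combination (0.0223). In the combination it had 119, 38 and 402 reads, or 0.345, 0.146 and 2.02 RPKM. Each library held some Ikbkg, but most of the summed level lay in the shallowest library. Ikbkg and Casp6 were the pathway genes, among the 8 and the 4 lists, that passed in all 3 arms. The 3 comparisons share the isotype libraries, and the share of all tested genes that passed in all 3 is not given here. Genes outside the pathway, such as Glb1 and Hist1h1c, passed in all 3 as well.

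Among 12 tested genes of other caspases and their direct regulators, Casp1, the caspase of inflammasomes, was higher in the combination, at a log2 fold change of 8.52 ± 2.09 (false discovery rate 0.00565) in the authors' deposited table. It was the only 1 of the 12 to pass, where 7.53% of tested genes passed in the combination. In anti-CTLA-4 it was at 1.45 ± 2.14 (false discovery rate 1) and in anti-PD-1 DANA at 6.99 ± 2.09 (0.0558) in the authors' deposited table. Its reads were 1252, 226 and 4 in the combination, 4, 56 and 455 in anti-PD-1 DANA, and 4, 4 and 2 in anti-CTLA-4, so that the library with most Casp1 was the deepest in the combination and the shallowest in anti-PD-1 DANA.

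Among 16 tested caspase substrates and execution genes, 0 passed in anti-CTLA-4, 1 in anti-PD-1 DANA and 2 in the combination. Over all tested genes 4.23%, 3.75% and 7.53% passed in these arms. Gsn, which encodes gelsolin, an actin-severing protein cut by caspases, was higher in anti-PD-1 DANA at a log2 fold change of 7.05 ± 2.03 (false discovery rate 0.0423) in the authors' deposited table. In anti-CTLA-4 it was nearly as high but did not pass, at 6.45 ± 2.04 (0.0720) in the authors' deposited table. Its reads were 816, 2 and 256 in anti-PD-1 DANA, 2, 249 and 211 in anti-CTLA-4, and 5, 1 and 10 in the combination. Lmnb2, which encodes lamin B2 of the nuclear lamina, was lower in the combination at -6.56 ± 1.75 (0.0128) in the authors' deposited table, and its isotype reads were 574, 138 and 5. Dffb, which encodes the nuclease that cuts DNA between nucleosomes during apoptosis, was lower in the combination at -7.67 ± 1.83 (0.00420), with an isotype mean of 16.9 RPKM, in the authors' deposited table. In the combination Lmnb2 and Dffb therefore passed in the same direction as Tradd and opposite to Casp6.

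The genes closest to Casp6 were sought by the Euclidean distance of the 3 log2 fold changes among 13255 protein-coding genes. Cd320 lay at a distance of 0.30, Glb1 at 0.30 and Hist1h1c at 0.37, and 39 genes lay within 1. Glb1 had false discovery rates of 0.0174, 0.0262 and 0.0143 in the authors' deposited tables, close to those of Casp6, whereas Cd320 passed in none. For Tradd the nearest were Cks2 at 0.31, Spcs2 at 0.39 and Flcn at 0.40, with 51 genes within 1. Spcs2 was lower in the combination at a log2 fold change of -4.64 (false discovery rate 1.27e-05) in the authors' deposited table.

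The recovered library sizes were 14729713 to 42556869 mapped reads, with the lowest in anti-CTLA-4 and the highest in the combination. The labels state a far smaller number of reads per library, close to the number of genes listed, which was not used as a depth. Of 8 CD8 T cell markers none passed in any arm. An unadjusted p under 0.05 was found for 1, 1 and 0 of the 8, beside 22.9%, 23.1% and 23.2% of tested genes. Cd3d reached 486 RPKM, Cd8b1 422 RPKM and Cd3g 409 RPKM, so the defining transcripts of the sorted cells were abundant. B cell markers were present too, with Cd74 at 157 RPKM and Igkc at 90.2 RPKM in isotype and Cd79a at up to 75.6 RPKM. The summed larger means of the 8 B cell markers were 763 RPKM in the table of anti-CTLA-4, 310 RPKM in that of anti-PD-1 DANA and 342 RPKM in that of the combination. In the last 2 sums the values of Cd74, Igkc, Cd22 and Pax5 are isotype means, whereas in the first they are means of the treated arm. The sums therefore do not rank the treated arms by B cell transcripts. Of these markers Ms4a1 was higher in anti-CTLA-4 (log2 fold change 6.03 ± 1.65) and Cd22 lower in the combination (-6.38 ± 1.69) in the authors' deposited tables. Cd4 was higher in anti-CTLA-4 at 8.23 ± 2.36 in the authors' deposited table, with a mean of 2.48 RPKM. Of the 4 CD4 T cell markers, 2 had a log2 fold change above 0 in that arm. Of myeloid markers Fcgr3 was lower in all 3 arms, Lyz2 lower in the combination at -4.26 ± 1.17 and Csf1r higher in anti-PD-1 DANA at 8.44 ± 2.10 in the authors' deposited tables. The mean of Fcgr3 was 3.76 RPKM in isotype and that of Csf1r 3.88 RPKM in anti-PD-1 DANA. Of 5 tested myeloid markers, 2 were above 0 in each arm, so neither list moved in a single direction. The highest mean of a myeloid marker was the 92.1 RPKM of Lyz2 in anti-CTLA-4. In the other lists the highest means were 3.12 RPKM for Zbtb7b of CD4 T cells, 3.75 RPKM for Klre1 of NK cells and 14.3 RPKM for Hba-a2 of erythroid cells. Of the stromal list Pecam1 reached 21.1 RPKM, while Col1a1 reached only 0.150 RPKM and Col1a2 0.00373 RPKM. Ncr1, Klra8, Adgre1, Cd14, Alas2 and Pdpn were listed at 0. Death receptor and caspase genes are expressed by B cells and myeloid cells as well as by T cells, and the part of those cells in the levels given above was not tested.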

How the data were processed

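RNA of 12 libraries was amplified from 0.25 ng with 21 cycles by a Smart-seq2-type protocol and sequenced on an Illumina instrument, per the labels' protocols. CLC Genomics Workbench served for alignment and quantification, per the labels' protocols, and the build was GRCm38.p5, as named in the submitters' processing notes. Program version, annotation release, strand setting and statistical model: not given in the sources used here. For each treatment against isotype, the authors deposited the larger group mean in RPKM (unit read from the values), the log2 fold change, its signed linear form (a score below 0 where the treated arm is lower), the p-value and its adjustments by false discovery rate and Bonferroni. The deposited p-values were adjusted over all 48709 listed genes, of which 17833 were tested.

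No table holds values per library, so a count model could not be fitted and the authors' comparisons were used, with a false discovery rate under 0.05 as a call. A standard error was obtained by dividing the size of the log2 fold change by the normal quantile that its p-value corresponds to. Differences between treatments used equal variances where the 3 standard errors of a gene lay within 5% of each other (10237 genes, 57.4% of those tested) and an upper bound elsewhere, with normal two-sided p-values and Benjamini-Hochberg adjustment over listed genes. Library sizes and whole reads were solved from the RPKM means with exon lengths of GENCODE M21, which matched 48349 genes (99.3%), allowing at most 0.1 solutions by chance. For Fas a length of 1801 bases and for Casp6 of 1676 bases was inferred in the same step, shorter than all annotated exons together. Of 1910 means tried in 2000 drawn genes, 75.7% were solved, against 2.41% with lengths off by 1 base. The steps were checked on simulated data. Depth of 14729713 to 42556869 reads per library limits what can be seen for genes near 1 read.

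All 8 genes are named. In the other lists, genes that passed are named, or else the 2 most abundant, and the nearest genes are the 3 at the smallest distance. The 8 genes, the lists and the rules were chosen with earlier results of these data known. Promoters came from RefSeq (GRCm38.p6) and matched 7 of the 8 genes, all except Tradd. Python 3.11.15, numpy 2.4.6, pandas 2.3.3 and scipy 1.17.1 were used.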

Additional observations from a re-analysis of the deposited data

How the results depend on the processing

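No paired analysis was possible because the tables hold no values per library, and no library could be left out of the authors' test for the same reason. Against isotype, genes past the threshold in the anti-CTLA-4, the anti-PD-1 DANA and the combination arm numbered 1616, 1596 and 2238 with Benjamini-Hochberg adjustment over tested genes only, 27, 34 and 74 with Bonferroni adjustment, and 2055, 1989 and 2314 at 1 RPKM or more. Scaling by library size gave 1367 genes in anti-CTLA-4 (86.9% higher, beside 64.7% in the authors' scaling) and 1217 in anti-PD-1 DANA (86.4% beside 64.9%). Of the 8 genes, 3 passed in anti-CTLA-4 and 2 in anti-PD-1 DANA both over tested genes only and by library size, 3 and 3 at 1 RPKM or more, and 0 in each arm under Bonferroni adjustment. In the combination 1 passed at 5 RPKM or more, where Casp6 fell outside the filter. The genes gained were Fasl (adjusted p from 0.0136 to 0.0242 in anti-CTLA-4, and 0.0443 at 1 RPKM in anti-PD-1 DANA) and Fadd (0.0138 to 0.0256), while Casp6 passed in anti-CTLA-4 and anti-PD-1 DANA under all of these alternatives except Bonferroni adjustment. The RPKM filters used the larger group mean of a comparison, so Fasl, Fadd and Casp6 entered them only through treated arms. Passing under those filters is therefore no separate support.

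Between the combination and anti-CTLA-4, 10 genes passed with the upper bound of the error, 353 over tested genes only and 291 by library size (8.25% higher, beside 47.8%). Between the combination and anti-PD-1 DANA these were 6, 224 and 228 (13.6% beside 43.8%), and between anti-CTLA-4 and anti-PD-1 DANA 3 passed over tested genes only. None of the 8 genes passed in any of these. Library size reversed the sign of uncalled values: Cflar to 0.19 and Casp8 to 0.63 in anti-CTLA-4, Cflar to 0.07 in anti-PD-1 DANA and Casp8 to 0.05 in the combination. It did the same between the combination and anti-CTLA-4 for Fas (-0.74), Ripk1 (-0.44) and Casp8 (-0.59), between the combination and anti-PD-1 DANA for Fas (-0.01), Ripk1 (-0.15) and Casp6 (-0.67), and between anti-CTLA-4 and anti-PD-1 DANA for Fadd (0.03) and Cflar (0.12). Leaving 1 library out of an arm mean, chosen after the data had been seen, left Casp6 between 3.10 and 9.12 RPKM in anti-PD-1 DANA and between 2.90 and 5.88 RPKM in the combination. The evenly spread Casp8 ranged from 15.4 to 18.3 RPKM in anti-CTLA-4 and from 20.5 to 22.0 in anti-PD-1 DANA.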
